A study of Mus musculus with 6 samples.

Results

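Glutathione S-transferases are enzymes that join the tripeptide glutathione to reactive or toxic molecules, among them lipid peroxidation products and some cytotoxic drugs. The conjugates are then pumped out of the cell by ABC transporters. The soluble enzymes fall into classes named alpha, mu, pi, omega and theta, while the microsomal enzymes belong to a separate family of membrane proteins, called MAPEG, that also makes leukotrienes and prostaglandins. Several of their genes are targets of NRF2, the transcription factor that responds to oxidants and electrophiles.

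The set described here held 10 of the 24493 genes in the deposited expression table, picked by symbol. Gsta3 and Gsta4 are of the alpha class, Gstm1 and Gstm2 of the mu class, Gstp1 of the pi class, Gsto1 of the omega class and Gstt1 of the theta class, and Mgst1, Mgst2 and Mgst3 are microsomal. RNA had been sequenced in bulk from 6 libraries of mouse pancreatic tumor cells of the line that the titles call 6419c5, sorted from subcutaneous tumors in the C57BL/6 strain. Of these, 4 libraries were untreated controls. The other 2 came from tumors treated with GAFCP, the labels' name for gemcitabine and abraxane (chemotherapy), a CD40 agonist, and blockade of PD-1 and CTLA-4. The comparison asks how expression in the sorted cells differed with the treatment. All agents were given together, and 1 line was used, so no single drug and no other line can be assessed. Nothing in the sources used here ties a library to an animal or tumor, nor gives the gate of the sort. The p-values therefore measure library-to-library spread alone, and that spread could be technical.

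Values are TPM, an abundance of transcripts corrected for their length and scaled to the same total in every library. The sequencing depth is unknown because TPM does not keep it. Log2 changes are GAFCP minus control on log2(TPM + 1). A gene was called at a limma p-value under 0.05 after Benjamini-Hochberg adjustment across the 13720 genes tested. All 10 members had reached 1 TPM in at least 2 libraries and were tested.

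Markers of the labelled tumor cells were abundant, and markers of other cell types were present too. The keratin Krt8 averaged 2321 and 1544 TPM in the control and GAFCP groups, while the adhesion molecule Epcam was low, at 12.8 and 1.54 TPM. The 10 epithelial and ductal markers, a list chosen to represent the labelled tumor cells, summed to between 6813 and 7198 TPM in controls and to 5185 and 5217 TPM with GAFCP, with 6 of 10 lower and 1 higher. All 10 macrophage markers were detected in every library and called higher, with sums of 1303 to 1402 TPM in controls and 5578 to 5654 TPM with GAFCP. All 8 pan-leukocyte markers were also higher, from 90.8 to 108 TPM in controls against 263 to 272 TPM. The 8 adipocyte markers summed to 45.8 and 23.4 TPM in control libraries 1 and 2 and to between 9.57 and 10.7 TPM in the other 4 libraries. In bulk libraries such as these, fewer cells of a type and less RNA per cell cannot be told apart.

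Of the 10 members 7 fell with GAFCP and none rose, where 28.5% of all tested genes were called lower, 19.0% higher and 47.5% in either direction. The lipid aldehyde-conjugating Gsta4, the mu-class Gstm1 and the microsomal Mgst2 and Mgst3 each fell by more than 1 on the log2 scale, a size reached by 2.51% of tested genes (4.69% rose by as much, and no member did). Gstm2 fell by 0.92, Gstt1 by 0.24 and Gstp1 by 0.09. Mgst2 and Gstm2 lay close to the cut of 1 on either side. Under the alternatives described at the end, Mgst2 ran from -1.08 to -0.95 and Gstm2 from -1.02 to -0.71. Gsta3, Gsto1 and Mgst1 did not pass. The median log2 change of the members was -0.86, against -0.07 over all genes tested, and -0.50 with a pseudocount of 5. The groups did not overlap for the same 7 members, all lower with GAFCP, against 36.9% of all tested genes that were apart and lower and 61.6% apart in either direction.

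**Figure D1:**
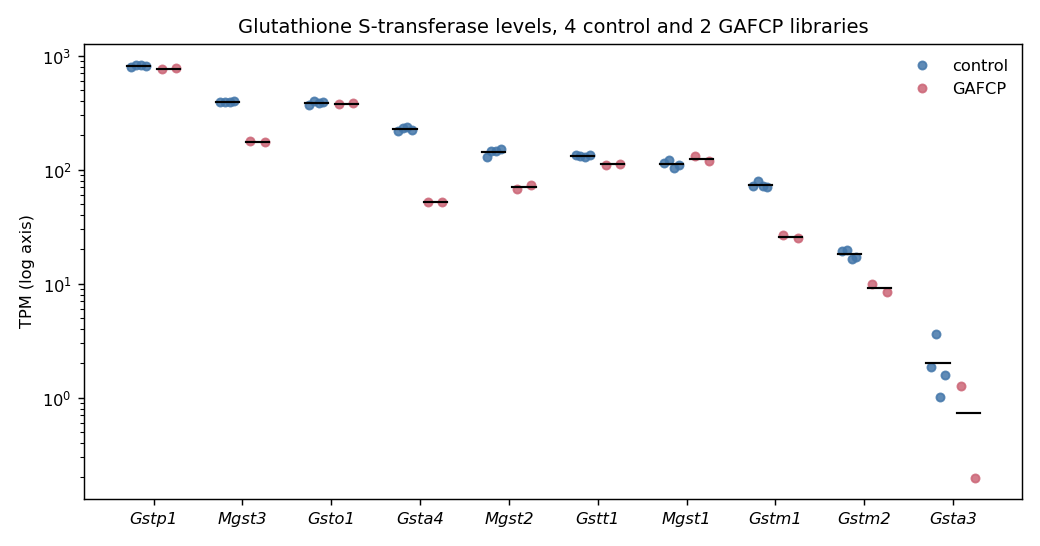
TPM of each member (log axis) in the 4 control and 2 GAFCP libraries, ordered by control mean, with 1 point per library and a bar at each group mean. Gsta4, Gstm1, Mgst2 and Mgst3 separate clearly, Gstp1 and Gsto1 stay close between groups, and Gsta3 is low and scattered.

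Gsta4 showed the largest change of the members. The enzyme conjugates 4-hydroxynonenal, an aldehyde released from oxidized lipids, and its gene spans positions 78182774 to 78209349 of chromosome 9 (mm10). Gsta4 was at 217, 231, 236 and 223 TPM in control libraries 1 to 4 and at 52.3 and 51.9 TPM in the GAFCP libraries. Every control library was thus far above both treated ones. The group means of 226.7 ± 8.39 TPM (SD, n = 4) and 52.1 ± 0.223 TPM (SD, n = 2) differed 4.35-fold. The log2 change was -2.10 ± 0.04 (SE; limma adjusted p = 3.49e-08).

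The other alpha-class member, Gsta3 (chromosome 1, 21240589 to 21265661), was expressed at a low level. It was at 1.85, 3.63, 1.01 and 1.58 TPM in controls and at 1.27 and 0.196 TPM with GAFCP, so the groups overlapped. Its log2 change of -0.80 ± 0.36 (SE) did not pass (limma adjusted p = 0.103). It was -1.27 without GAFCP library 1 and -0.34 without GAFCP library 2. Among controls, library 2 was the highest for Gsta3, as it was for Gstm1, Gstm2, Gstp1, Gsto1 and Mgst1. It was the second highest for the adipocyte markers, at 23.4 TPM, while control library 1 had 45.8 TPM of these markers. Any part of adipocytes in the Gsta3 values was not tested.

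Both mu-class members fell. Gstm1 (chromosome 3, 108012255 to 108017973) was at 72.3, 80.3, 71.7 and 70.7 TPM in controls and at 26.5 and 25.2 TPM with GAFCP. The mean dropped 2.85-fold (log2 change -1.48, SE 0.06, limma adjusted p = 9.57e-07). Gstm2, which lies on the same strand of this gene cluster from 107981702 to 107986453, was at 19.3, 19.9, 16.6 and 17.2 TPM in controls and at 9.85 and 8.47 TPM with GAFCP. The groups did not overlap for Gstm2 either, and its log2 change was -0.92 ± 0.09 (SE; limma adjusted p = 0.000144). The ratio of Gstm1 to Gstm2 TPM was between 3.75 and 4.33 in controls and was 2.69 and 2.97 with GAFCP, a comparison within each library that does not depend on the scaling between libraries. Reads could have been divided uncertainly here, since 30.4% of the 31-base words in Gstm1 transcripts and 17.4% of those in Gstm2 also occur in transcripts of other genes of the GENCODE M21 annotation.

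Gstp1, a pi-class enzyme often raised in human tumors, was the most abundant member in both groups (chromosome 19, 4035407 to 4037985). It was at 794, 836, 828 and 818 TPM in controls and at 761 and 775 TPM with GAFCP. Both GAFCP libraries were below every control, but by little. The means of 819.0 ± 18.4 TPM (SD, n = 4) and 768.0 ± 9.26 TPM (SD, n = 2) put the log2 change at -0.09 ± 0.03 (SE; limma adjusted p = 0.0413). This call was lost under 10 of 18 alternatives, with adjusted p = 0.647 after median-of-ratios scaling and a log2 change of -0.24 after quantile normalization, where it was kept. By single library it was lost without control library 2, 3 or 4 and without either GAFCP library (adjusted p from 0.0603 to 0.232). Of the 31-base words in Gstp1 transcripts 57.8% occur in other genes, mainly its neighbor Gstp2, which lies 2299 bases away, so the split of reads between the pair is uncertain.

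The omega-class Gsto1 (chromosome 19, 47854970 to 47864790), which reduces mixed disulfides and arsenic compounds, overlapped between groups. It was at 374, 398, 383 and 392 TPM in controls and at 375 and 383 TPM with GAFCP. Its log2 change was -0.03 ± 0.04 (SE; limma adjusted p = 0.515). The sign turned positive, to 0.03, with median-of-ratios scaling, and the gene was called lower only with quantile normalization (adjusted p = 0.0113). The theta-class Gstt1 (chromosome 10, 75783813 to 75798584), which handles small halogenated molecules, was steady within groups at 133, 131, 131 and 135 TPM in controls, against 111 and 113 TPM with GAFCP. The groups did not overlap, and the log2 change of -0.24 ± 0.03 (SE) passed (limma adjusted p = 0.000743). Relative to the sum of the epithelial markers its direction turned, though not relative to each of them, as given further on.

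The microsomal members diverged. Mgst3 (chromosome 1, 167371966 to 167393841), an enzyme with glutathione transferase and peroxidase activity, was at 393, 396, 391 and 404 TPM in controls and at 177 and 174 TPM with GAFCP. It varied by 1.44% between controls (SD over mean) and fell 2.26-fold (log2 change -1.17, SE 0.03, limma adjusted p = 8.09e-08). Mgst2 (chromosome 3, 51660360 to 51682677), which can also make leukotriene C4, was at 129, 146, 146 and 154 TPM in controls and at 68.1 and 72.8 TPM with GAFCP. Its mean fell 2.04-fold (log2 change -1.02, SE 0.07, limma adjusted p = 1.47e-05).

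Mgst1 (chromosome 6, 138140316 to 138156755), which protects membranes of the endoplasmic reticulum and mitochondria, behaved unlike the other microsomal genes. It was at 114, 122, 103 and 109 TPM in controls and at 131 and 118 TPM with GAFCP, so that 1 control lay between the treated libraries. Its log2 change of 0.15 ± 0.07 (SE) did not pass (limma adjusted p = 0.126). Median-of-ratios scaling gave a higher call (adjusted p = 0.0155), as did leaving out control library 2 (adjusted p = 0.0429). So did keeping control libraries 3 and 4 alone (adjusted p = 0.0469), an alternative added once the values were known. Within each library, the ratio of Mgst3 to Mgst1 TPM was 3.44, 3.23, 3.79 and 3.71 in controls and 1.35 and 1.47 with GAFCP. The ratio of Mgst2 to Mgst1 was between 1.13 and 1.41 in controls and was 0.520 and 0.616 with GAFCP. These ratios, chosen after the values were seen, did not overlap between groups.

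Sequences that lie next to the falls of more than 1 on the log2 scale are shown here, from RefSeq on GRCm38.p6 and 5′ to 3′ along the gene. No entry was available for Gsta4, 1 of the 4 members with such a fall. The bases upstream of the RefSeq start sites are given for the other 3. They are Mgst3 (chr1:167393842-167394091, minus strand), Mgst2 (chr3:51660929-51661177, plus strand) and Gstm1 (chr3:108017974-108018223, minus strand). The RefSeq start of Mgst2 lies inside its GENCODE span, which opens further upstream. Short sites from 2 members without such a fall follow, for Mgst1 (chr6:138140461-138140489, plus strand) and Gstp1 (chr19:4037970-4037996, minus strand). The Mgst1 site lies inside the GENCODE span of its gene, and the Gstp1 site runs across the upstream end of its span. Capitals mark a match to the antioxidant response element core that NRF2 binds (TGACNNNGC or its reverse complement) or to the AP-1 site (TGACTCA or its reverse complement).
Mgst3: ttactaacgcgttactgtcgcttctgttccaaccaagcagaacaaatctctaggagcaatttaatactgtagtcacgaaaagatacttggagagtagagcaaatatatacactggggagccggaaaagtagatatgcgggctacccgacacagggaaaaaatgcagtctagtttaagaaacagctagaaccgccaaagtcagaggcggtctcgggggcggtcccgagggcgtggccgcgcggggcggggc
Mgst2: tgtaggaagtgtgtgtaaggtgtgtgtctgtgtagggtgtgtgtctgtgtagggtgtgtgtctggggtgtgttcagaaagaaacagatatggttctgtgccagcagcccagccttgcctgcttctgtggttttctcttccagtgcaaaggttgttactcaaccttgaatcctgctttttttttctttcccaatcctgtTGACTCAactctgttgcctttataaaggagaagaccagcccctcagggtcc
Gstm1: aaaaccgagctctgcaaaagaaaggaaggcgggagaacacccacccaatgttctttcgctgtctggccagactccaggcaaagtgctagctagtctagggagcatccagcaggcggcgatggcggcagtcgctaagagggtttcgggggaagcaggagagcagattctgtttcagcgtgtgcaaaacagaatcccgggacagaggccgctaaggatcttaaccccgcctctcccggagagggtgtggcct
Mgst1: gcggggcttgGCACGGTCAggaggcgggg
Gstp1: tccaacgtgtTGAGTCAgcatccgggg

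The promoter table matched 9 of the 10 members with 11 promoters. It held no entry for Gsta4, the member with the largest change, whose promoter was therefore not examined. Over the 250 bases before each start site, the antioxidant response element core occurred on either strand in Gsta3 and Mgst1, and in 10.2% of all 32851 promoters. The AP-1 site occurred in Gstp1 and Mgst2, 74 and 52 bases before their starts, and in 4.46% of all promoters. The gamma-activated site bound by STAT factors (TTCNNNGAA) occurred in 0 of the 11 and in 7.02% of all. The xenobiotic response element core bound by the aryl hydrocarbon receptor (GCGTG) occurred in Gstm1, Gstp1 and Mgst3, and in 28.2% of all. Since both begin with the same letters, a single site can match both the antioxidant and the AP-1 motif. The core of the antioxidant element was thus in 2 of the 11 promoters. Most promoters lack it, as did those of Gstm1, Gstm2, Gstp1, Gsto1, Gstt1, Mgst2 and Mgst3 and the second promoter of Mgst1. The members without it thus included Mgst2 and Mgst3, which fell, and Gsto1, which was not called. A match describes letters only, and its absence in this window says nothing of a factor.

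Summed over the 10 members, the level was 2248, 2365, 2307 and 2324 TPM in control libraries 1 to 4 and 1713 and 1721 TPM in the GAFCP libraries. The GAFCP mean was thus 25.7% lower, with no overlap. Gsta4, Gstm1, Mgst2 and Mgst3 together summed to 840.2 ± 19.2 TPM in controls (SD, n = 4) against 323.8 ± 0.0794 TPM (SD, n = 2), and made up 86.9% of the summed difference. They were grouped by their falls of more than 1 on the log2 scale in these same libraries, so a large share follows in part from that choice. Mgst3 alone gave 37.1% of it and Gsta4 29.4%. The other 6 members summed to 1471 ± 31.5 TPM (SD) in controls and 1393 ± 5.47 TPM (SD) with GAFCP.

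The make-up of the set shifted toward Gstp1, Gsto1, Mgst1 and Gstt1, none of which was called higher in TPM. Gstp1 held 35.4% ± 0.296 of the summed level in controls and 44.7% ± 0.399 with GAFCP (SD, n = 4 and n = 2), and Gsto1 16.7% and 22.1%. The share of Mgst1 went from 4.86% to 7.26% and that of Gstt1 from 5.74% to 6.52%. Mgst3 went from 17.1% to 10.2% and Gsta4 from 9.81% to 3.04%. In controls the order of mean levels was Gstp1, Mgst3, Gsto1, Gsta4, Mgst2, Gstt1, Mgst1, Gstm1, Gstm2 and Gsta3, where Mgst3 and Gsto1, and Mgst2 and Gstt1, overlapped in range. With GAFCP the order was Gstp1, Gsto1, Mgst3, Mgst1, Gstt1, Mgst2, Gsta4, Gstm1, Gstm2 and Gsta3, with no neighbors overlapping over 2 libraries. Gsta4 thus moved below Mgst1, Gstt1 and Mgst2, and from rank 527 to rank 2618 among all genes in the table.

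**Figure D2:**
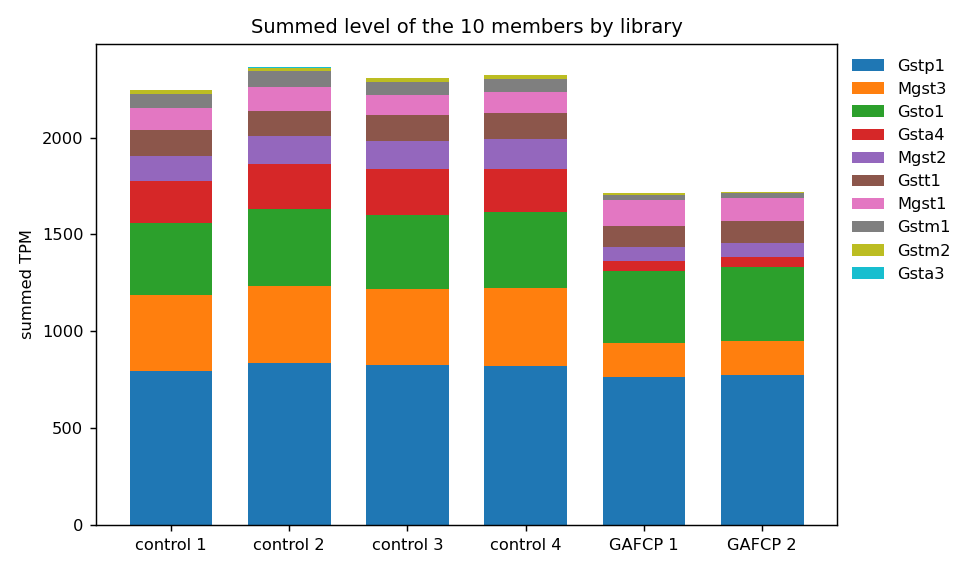
Summed TPM of the 10 members in each library, stacked by gene. The 4 control bars reach 2248 to 2365 TPM and the 2 GAFCP bars 1713 and 1721 TPM, with the Mgst3 and Gsta4 segments visibly shorter and the Gstp1 and Gsto1 segments nearly equal.

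The summed level of the tumor cell markers was also lower in the GAFCP libraries, so each member was set against that sum. Per 1000 TPM of the 10 epithelial and ductal markers, Gsta4 averaged 32.6 in controls and 10.02 with GAFCP, Gstm1 10.6 and 4.97, Mgst3 56.9 and 33.7, Mgst2 20.6 and 13.5, and Gstm2 2.62 and 1.76. On this scale the groups stayed apart for those 5 members. The direction turned to higher with GAFCP for Gstp1 (117.7 and 147.7), Gstt1 (19.0 and 21.5) and Gsto1 (55.6 and 72.8). Mgst1 was higher on this scale as well (16.1 and 24.0, no overlap), and Gsta3 overlapped between groups. Most of the marker sum came from the keratins Krt8, Krt18, Krt19 and Krt7, at 2321, 1766, 1615 and 728 TPM in controls. All of these but Krt18 were called lower. The GAFCP mean of Krt18 was 0.958 of its control mean. Against Krt18 alone, Gstt1 (0.845) and Gstp1 (0.938) stayed lower, and Gsto1 (0.979) was higher. The direction of Gstt1 and Gstp1 thus depended on the markers used. The part that cell mixture plays in any of these values was not tested.

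Genes most like the members were sought among 10371 others with a mean of at least 5 TPM, by the root mean square difference between log2 profiles centred over the 6 libraries. The nearest to Gsta4 were Tm4sf20 (0.078), the glucuronosyltransferase Ugt2b34 (0.080) and the growth factor Fgf1 (0.087). Those nearest to Gstm1 were Mycn (0.043), Prom1 (0.044) and Onecut3 (0.045). The nearest to Gstp1 were the translation factor Eif3m (0.012), the ribosomal protein Rpl6 (0.013) and Gm15772 (0.015), and to Gsto1 the mitochondrial enzyme Mdh2 (0.009), Tmem129 (0.012) and Tspan31 (0.014). The 6 points of a profile fall in 2 groups, so genes with a like difference between groups score as near.

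Other genes of the same families were mixed. Of 22 listed, 20 were in the table and 14 were tested, with 5 lower, 5 higher and a median log2 change of -0.12. Over all tested genes 28.5% were lower and 19.0% higher. The genes that fell were soluble transferases. Gsta1, 21306 bases from Gsta4, was at 9.18, 8.87, 10.9 and 10.7 TPM in controls and at 0.557 and 0.516 TPM with GAFCP. This was the largest change in the family, at -2.82 ± 0.11 (SE; limma adjusted p = 6.19e-07), though 92.2% of its 31-base words occur in other genes. In the mu cluster on chromosome 3, Gstm5 went from 63.4 to 45.7 TPM (log2 change -0.46) and Gstm7 from 2.98 to 0.903 TPM (-1.07). Gstt3, next to Gstt1, fell by 0.44 and Gstz1, which degrades a tyrosine breakdown product, by 0.53. Gstp2, Gstp3, Gstt2 and Gstcd did not pass, with log2 changes of -0.14, -0.11, 0.29 and -0.13.

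The family genes that rose were mostly makers of lipid mediators. Alox5ap, the MAPEG protein that hands arachidonic acid to 5-lipoxygenase, was at 15.3, 17.6, 15.3 and 14.8 TPM in controls and at 42.1 and 44.6 TPM with GAFCP (log2 change 1.41 ± 0.07, SE; limma adjusted p = 3.84e-06). Ltc4s, the leukotriene C4 synthase, averaged 5.58 and 15.5 TPM, Hpgds, a prostaglandin D2 synthase of the sigma class, 0.814 and 3.01 TPM, and Ptges, a prostaglandin E2 synthase, 62.4 and 93.8 TPM. Gsto2, 743 bases from Gsto1, rose from 3.39 to 6.74 TPM (log2 change 0.83). In the same libraries the 10 macrophage markers went from at most 1402 to at least 5578 TPM in sum, and their part in these increases was not tested.

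**Figure D3:**
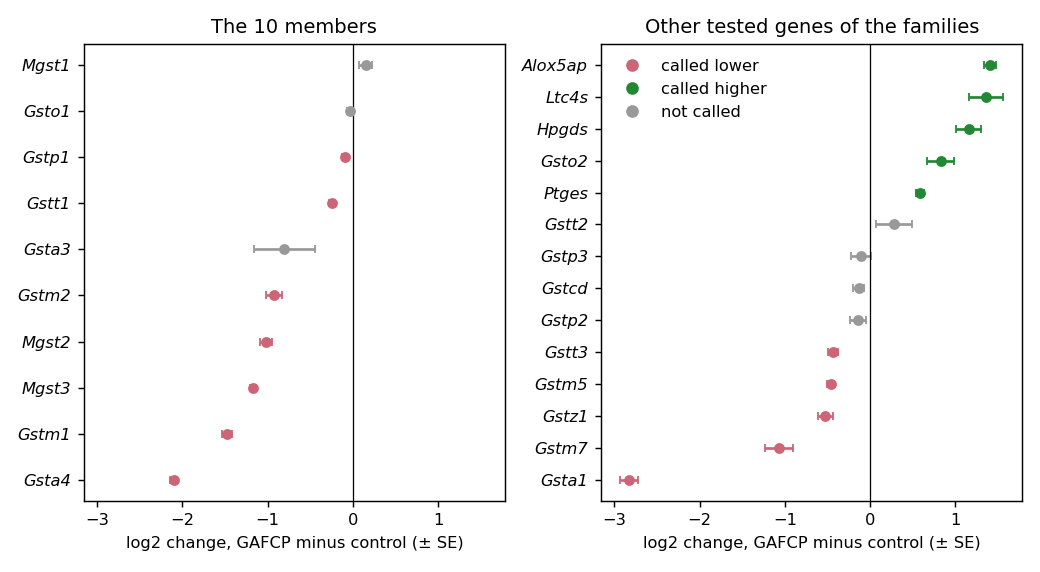
Log2 change, GAFCP minus control, with its standard error for the 10 members (left) and the 14 other tested genes of the families (right), colored by call. Soluble transferases such as Gsta1 and Gsta4 lie at the low end, and Alox5ap, Ltc4s and Hpgds at the high end.

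Of 7 tested genes that supply glutathione 4 were lower and 1 higher (median log2 change -0.29). For this and the lists that follow, the shares over all tested genes are 28.5% lower and 19.0% higher. Gclc, the catalytic subunit of the rate-limiting glutamate-cysteine ligase, was at 114, 116, 108 and 113 TPM in controls and at 58.6 and 60.5 TPM with GAFCP. Its log2 change was -0.91 ± 0.04 (SE; limma adjusted p = 1.8e-06). Its partner Gclm fell by 0.29, the synthetase Gss by 0.35 and Cbs, which starts cysteine synthesis from homocysteine, by 1.13. Slc3a2, the heavy chain of the cystine transporter, rose by 0.29, whereas the transporter's light chain Slc7a11 (0.19) and Cth (-0.26) did not pass.

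Of 11 tested enzymes that use glutathione against peroxides and disulfides, 4 were lower and 3 higher, near the shares over all genes. Gpx1 had group means of 537 and 407 TPM (log2 change -0.40), and Gpx2, an epithelial peroxidase, 2.44 and 0.0821 TPM (-1.67). Gpx8 fell by 0.62 and Gpx4, which reduces lipid peroxides in membranes, by 0.17. The secreted peroxidase Gpx3 rose from 7.83 to 24.7 TPM (log2 change 1.54), the glutaredoxin Glrx from 15.7 to 40.7 TPM (1.31) and the reductase Gsr by 0.22. Of 9 tested breakdown genes 4 were lower and 4 higher, among them Ggct (0.67) and Ggt5 (1.09) above and Chac2 (-0.72) and Oplah (-0.47) below. Without GAFCP library 1, 3 breakdown genes were higher and 2 lower, and without GAFCP library 2, 2 were higher and 3 lower. Among the tested conjugate exporters Abcc1 (0.52) and Abcc4 (0.27) rose, Abcc5 (-0.50) and Abcc3 (-0.30) fell, and Abcg2 did not pass (log2 change -0.10). Without GAFCP library 1 only 2 exporters passed.

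Among the 6 regulators of the NRF2 system Nfe2l2, which encodes NRF2, fell by 0.30, while the small Maf partners Maff and Mafk rose by 0.64 and 0.55. Keap1, its inhibitor, did not pass (log2 change -0.09), nor did Mafg and Bach1. The regulators called went from 2 higher and 1 lower to 4 higher and 1 lower with median-of-ratios scaling and with quantile normalization. Of 22 tested NRF2 targets, a list that shares Gclc, Gclm, Slc7a11 and Gsr with those above, 9 were lower and 7 higher (median log2 change -0.002). Hmox1, the heme oxygenase, was at 122, 125, 115 and 120 TPM in controls and at 472 and 478 TPM with GAFCP (log2 change 1.97 ± 0.04, SE; limma adjusted p = 3.5e-08), and the ferritin chain Fth1 rose by 0.39. The epoxide hydrolase Ephx1 had group means of 44.5 and 16.1 TPM (log2 change -1.41), and Nqo1, a quinone reductase, 4.003 and 1.56 TPM (-0.97). Macrophages also express Hmox1 and ferritin, and the macrophage markers were higher in these libraries (median log2 change 2.12). Their part was not tested.

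Other conjugating and carbonyl-detoxifying enzymes were lower in 15 of 22 tested and higher in 4 (median log2 change -0.43). This list shares Ephx1, Cbr1 and Cbr3, all called lower, with the NRF2 targets. The higher count was 2 without control library 1, control library 4 or GAFCP library 2. Ugt2b34 was at 145, 146, 133 and 139 TPM in controls and at 30.3 and 30.6 TPM with GAFCP (log2 change -2.17, SE 0.05, limma adjusted p = 3.9e-08), beside -2.10 for Gsta4. The sulfotransferase Sult1c2 averaged 28.1 and 3.59 TPM (log2 change -2.66), the glucuronosyltransferase Ugt1a7c 61.9 and 28.3 TPM (-1.10) and the aldehyde dehydrogenase Aldh3a1 44.6 and 14.5 TPM (-1.56). Among those that rose were the sulfotransferase Sult1a1 (2.03) and the aldo-keto reductase Akr1b8 (0.51).

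**Figure D4:**
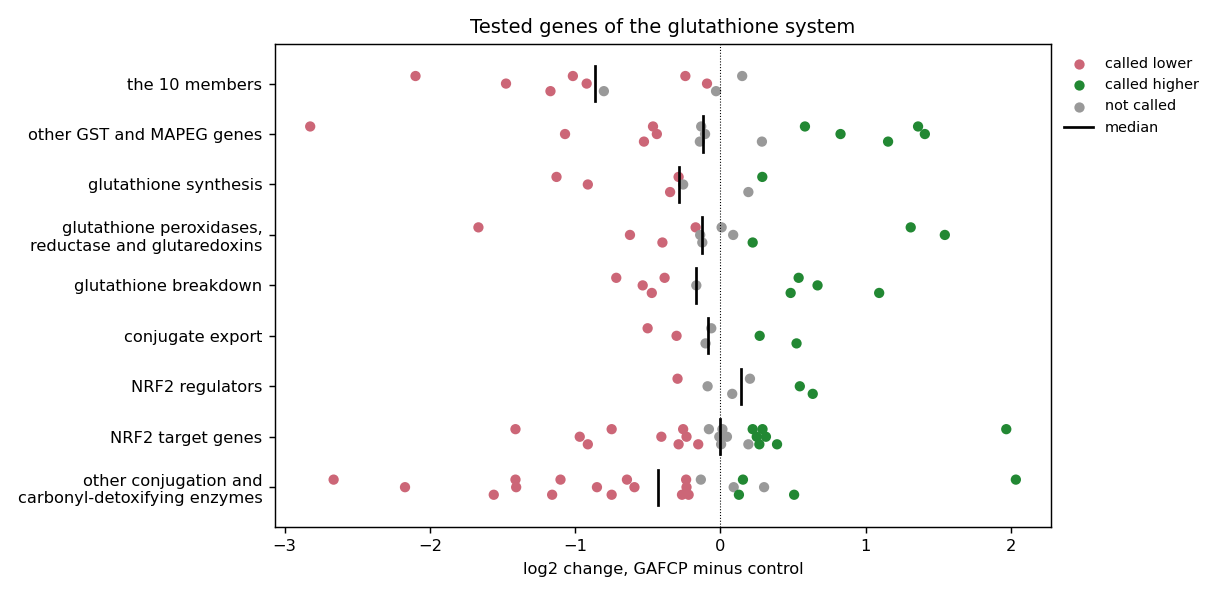
Log2 change, GAFCP minus control, of each tested gene in the members and 8 lists of the glutathione and detoxification system, colored by call, with a black bar at each median. The medians run from -0.86 for the members to 0.14 for the NRF2 regulators.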

How the data were processed

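Bulk RNA sequencing of 4 control and 2 GAFCP libraries was read from 1 table of TPM values, deposited by the authors, with all libraries summing to the same total. Salmon and mm10 are named in the submitters' processing notes, with no version or annotation found in the sources used here. Groups and replicate numbers came from the titles. The filter kept 13720 of 24493 genes, those reaching 1 TPM in 2 or more libraries. The model was fitted to log2(TPM + 1) by limma 3.58.1 under R 4.3.3 (empirical Bayes with a mean-variance trend, 4 residual degrees of freedom, two-sided). The code was tested on simulated data. A pseudocount of 1 understates changes of low genes such as Gsta3. TPM is relative, so a rise elsewhere lowers other genes.

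The members, gene lists and marker lists were chosen with earlier results of these data known, and lists are described by counts and medians with no set test. Named genes were the members, up to 4 called genes per list with the smallest p, and the nearest genes for 4 members. Genes named outside this rule, after their values were seen, are Gstm7, Gstp2, Gstp3, Gsto2, Gstt2, Gstt3, Gstz1, Gstcd, Hpgds, Ltc4s, Gclm, Slc7a11, Cth, Gpx4, Gpx8, Gsr, Nqo1, Keap1, Mafg, Bach1, Sult1a1, Akr1b8, Abcg2, Krt7, Krt8, Krt18, Krt19 and Epcam. 1 listed gene is not reported here. Positions are whole genes of GENCODE M21 on GRCm38 (mm10), matched by symbol. Shared 31-base words were counted over that release's transcripts. The remaining marker lists were T and NK cell, fibroblast and pericyte, endothelial, keratinocyte and pancreatic acinar, with 7 of 7, 6 of 9, 1 of 3, 0 of 3 and 0 of 1 tested genes called higher and 0, 1, 1, 1 and 1 called lower. Of 4 tested adipocyte markers 2 were called lower. Alternatives changed the pseudocount, filter, scaling, variance model, libraries and replicate block.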

Additional observations from a re-analysis of the deposited data

Results flagged for a closer look

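None of the 10 members nor their summed level had a control library standing far from the other 3. Among 68 sets of control values examined, 4 had 1 library separated from the rest by a gap past Dixon's 95% limit, and chance alone gives about 1 in 20. Slc3a2 was at 125 TPM in control library 2 and at most 118 TPM in the others. Cth was at 8.43 TPM in control library 2 and at most 6.01 TPM elsewhere. Gpx2 was at 2.12 TPM in control library 3 and at least 2.52 TPM in the others. Nqo1 was at 4.43 TPM in control library 1 and at most 3.89 TPM in the others.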

How the results depend on the processing

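Gsta4, Gstm1, Gstm2, Mgst2, Mgst3 and Gstt1 stayed lower and called under all 18 alternatives run for each, with Gsta4 between -2.13 and -2.02, Mgst3 between -1.24 and -1.11 and Gstt1 between -0.27 and -0.18. Set against the sum of the epithelial markers, Gstt1 turned to higher, but it stayed lower against Krt18 alone. Between 6 and 8 members were called. The summed level with GAFCP was 0.743 of the control mean, and 0.776 with median-of-ratios scaling. With that scaling 3449 genes were higher and 3425 lower, against 2606 and 3909, and Gsto1 turned to 0.034. Leaving out 1 library put Gstp2 between -0.30 (without GAFCP library 2) and 0.015 (without GAFCP library 1). Gstp3 turned to 0.00058 with control libraries 3 and 4 alone, an alternative added after seeing the data, and neither gene was called under any alternative. NRF2 regulators called went from 3 (2 higher) to 5 (4 higher) with median-of-ratios scaling and 5 with quantile normalization. Leaving out 1 library gave 5 to 7 breakdown genes called (8 with all libraries) and 2 to 4 exporters (4 with all). The replicate numbers were not shown to pair libraries (correlation of deviations -0.007 and -0.020 for numbers 1 and 2). With the replicate block 6 members and 5894 genes were called, with 1 residual degree of freedom. The lone GAFCP library left by omitting the other is assumed to vary as controls did.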
